A study of Mus musculus with 8 samples.

Results

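The mature arms of miR-99a, miR-100 and miR-125b and the 3p arms of let-7c-1 and let-7c-2 were followed in mouse bone marrow-derived macrophages with and without LPS. The set was chosen by name and holds 8 of the 1907 mature microRNAs (miRNAs) in the deposited tables: mmu-miR-99a-5p, mmu-miR-99a-3p, mmu-miR-100-5p, mmu-miR-125b-5p, mmu-miR-125b-1-3p, mmu-miR-125b-2-3p, mmu-let-7c-1-3p and mmu-let-7c-2-3p. The prefix mmu stands for mouse and is left out below. Of these 8 arms, 7 had enough counts to be tested and the remaining one, let-7c-2-3p, had 1 count over all libraries. None of the 7 passed the test for a change after 3 h of LPS, which 5.04% of all 357 tested miRNAs passed. Summed over the arms that belong to 1 cluster only, arms of chromosome 16 had far more counts than arms of chromosome 9 in every library.

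The cells came from wild-type mice aged 8 to 12 weeks, and the labels name no strain. Bone marrow cells were differentiated for 6 days in L929 supernatant, a medium conditioned by a fibroblast line that supplies macrophage colony-stimulating factor. Controls received no LPS, and the other cells were given LPS, a bacterial lipopolysaccharide sensed by Toll-like receptor 4, at 100 ng/ml for 3 h. There were 3 small RNA libraries per group. Whether these came from separate animals or cultures is not in the labels. The p-values therefore cover the spread between these 6 samples alone, and that spread may be technical.

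A miRNA hairpin is cut into a 5p and a 3p strand, and the strand that is loaded into Argonaute silences transcripts that pair with its seed, bases 2 to 8. Vertebrate genomes carry several copies of a cluster in which a miR-99 or miR-100 hairpin, a let-7 hairpin and a miR-125 hairpin follow each other. The miR-99/100 family is known for restraining mTOR signalling, let-7 for restraining Lin28, Hmga2 and Ras genes, and miR-125b for acting on Tnf and Irf4 transcripts and for its high level in blood stem cells. A fall of miR-125b has been reported in LPS-treated macrophages of other studies.

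In the mouse, the chromosome 16 cluster holds Mir99a (chr16:77598936-77599000), Mirlet7c-1 (chr16:77599657-77599750) and Mir125b-2 (chr16:77646273-77646343), spread over 47.4 kb. No gene of the RefSeq table spans these 3 hairpins, and the span of the long noncoding RNA gene Mir99ahg ends 40.5 kb before Mir99a. The chromosome 9 cluster holds Mir100 (chr9:41531425-41531504), Mirlet7a-2 (chr9:41536716-41536811) and Mir125b-1 (chr9:41581926-41582002) over 50.6 kb, all inside the span of the long noncoding RNA gene Mir100hg. Mirlet7c-2 (chr15:85706603-85706697) lies outside both clusters, next to Mirlet7b and inside the span of the noncoding gene Lncppara. The third copy, Mir99b, Mirlet7e and Mir125a, covers 0.691 kb on chromosome 17 inside the span of Spaca6. Coordinates are on GRCm38.p6, and the submitters' processing notes name an earlier patch, GRCm38.p1. The RefSeq table gives spans only, so exons and introns were not distinguished.

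The mature sequences show which arms can be assigned to 1 locus and which cannot. They are from RefSeq (GRCm38.p6, all on the plus strand), which held all 8 arms, and are written 5′ to 3′ with the seed in capitals. The first 3 share a seed, as do miR-125b-5p and miR-125a-5p, and the 3p arms are the ones that tell the copies of miR-125b and let-7c apart.
miR-99a-5p: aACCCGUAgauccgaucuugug
miR-100-5p: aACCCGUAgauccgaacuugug
miR-99b-5p: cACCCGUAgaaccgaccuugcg
miR-125b-5p: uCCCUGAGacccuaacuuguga
miR-125a-5p: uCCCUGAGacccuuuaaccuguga
miR-125b-1-3p: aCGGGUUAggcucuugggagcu
miR-125b-2-3p: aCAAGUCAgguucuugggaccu
let-7c-1-3p: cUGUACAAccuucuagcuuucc
let-7c-2-3p: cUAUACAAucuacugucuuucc
miR-99a-3p: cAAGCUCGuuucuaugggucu

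miR-99a-5p and miR-100-5p differ by 1 base of 22, U16A, with positions counted from the 5′ end. miR-125b-5p is the same 22 bases in Mir125b-1 and Mir125b-2, so its counts name no locus. The 3p arms of the miR-125b copies differ at 5 of 22 positions (G3A, G4A, U7C, C11U and G20C, miR-125b-1-3p first), and 3 of these lie in the seed. let-7c-2-3p is identical over all 22 bases to let-7a-1-3p of another hairpin, whereas let-7c-1-3p differs from let-7c-2-3p at 5 positions. How reads that fit several places were counted is not given in the sources used here.

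Library totals ranged from 3280688 to 4312555 counts. The LPS libraries held 1443 to 1997 counts of miR-155-3p and the controls 8 to 27, so the group labels fit this LPS-responsive miRNA. Of 8 macrophage and myeloid marker arms, 7 were abundant, and together they held 51.1% to 54.8% of the counts of a library. Most of that share was miR-22-3p and miR-21a-5p. The eighth, miR-142a-3p, was listed at 0 in all 6 libraries. Levels below are CPM, counts brought to the same library size by TMM factors, and a value after ± is the SD over the 3 libraries of a group.

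miR-99a-5p, the main arm of Mir99a, was the most abundant of the 8 and ranked 39 among all 1907 miRNAs by mean level. Its level was 3341, 3266 and 2810 CPM in the control libraries and 2929, 2993 and 2622 CPM in the LPS libraries. The groups overlapped, with 1 LPS library below all controls. The means were 3139 ± 287.6 and 2848 ± 198.1 CPM, a log2 fold change of -0.14 (SE 0.11, edgeR adjusted p = 0.856), and the 95% interval allowed a fold of 0.765 to 1.08. Without LPS replicate 3 the log2 fold change was -0.035.

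miR-99a-3p, the less abundant strand of the same hairpin, was at 106.6, 116.5 and 109.6 CPM in controls and 106.1, 124.0 and 129.2 CPM after LPS. LPS replicate 1 lay below all controls and the other 2 LPS libraries above them. The log2 fold change was 0.11 (SE 0.13, edgeR adjusted p = 0.943), and 0.041 without control replicate 1. miR-99a-3p made up 3.43% ± 0.332 of the miR-99a counts in controls and 4.06% ± 0.604 in LPS libraries. An exact permutation test of this share, two-sided, gave p = 0.2, and 3 against 3 libraries cannot give less than 0.1. Fitted with 100 hairpins that had both arms tested, the difference between the arms was 0.24 on the log2 scale (SE 0.18, limma adjusted p = 0.656). In that fit 12% of hairpins were called.

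let-7c-1-3p, from the hairpin 0.721 kb after Mir99a, was at 8.07, 14.1 and 12.9 CPM in controls and 16.46, 15.69 and 14.97 CPM after LPS. All 3 LPS libraries lay above the controls, and the control libraries were the more uneven, with replicate 1 lowest. The separation rests on the TMM factors. By library totals, LPS replicate 3 (59 of 4105395 counts) lay below control replicate 2 (58 of 3912296). Counts behind it were 34 to 58 in controls and 52 to 64 after LPS. The log2 fold change of 0.43 (SE 0.24) did not pass the test (edgeR adjusted p = 0.626). Without control replicate 1 it was 0.18. The 5p guide of this hairpin, let-7c-5p, is encoded at both let-7c loci and was at 112.4 ± 5.33 and 104.7 ± 12.2 CPM.

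let-7c-2-3p had 1 count in control replicate 1 and 0 in the other 5 libraries. A count of 0 allows up to 3 counts, or at most 0.914 CPM when scaled by library totals, which covers counting error only. Its identical twin let-7a-1-3p had 0 to 2 counts per library. let-7c-1-3p accordingly made up 34 of 35 let-7c 3p counts in control replicate 1 and all of them elsewhere. let-7b-3p, the arm of the neighbouring hairpin on chromosome 15, was at 32.8 ± 3.99 and 24.6 ± 3.62 CPM and its main arm let-7b-5p at 544.2 ± 43.8 and 468.4 ± 72.9 CPM.

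The 3p strand of Mir125b-2 was the more counted arm of miR-125b. miR-125b-2-3p was at 847.3, 868.5 and 797.1 CPM in controls and at 858.1, 837.2 and 814.2 CPM after LPS. The LPS libraries lay entirely within the control range. Their means were 837.6 ± 36.6 and 836.5 ± 22.0 CPM, with a log2 fold change of -0.0021 (SE 0.10, edgeR adjusted p = 0.998) and a 95% interval from 0.853-fold to 1.17-fold.

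miR-125b-5p, the arm known as the functional guide, was at 59.4, 66.5 and 55.5 CPM in controls and 64.9, 54.7 and 51.3 CPM after LPS. In the LPS group 2 libraries lay below all controls and 1 within their range. The log2 fold change was -0.09 (SE 0.16, edgeR adjusted p = 0.943), with a 95% interval of 0.740-fold to 1.19-fold. Each library held 13.1 to 15.9 counts of miR-125b-2-3p for 1 of miR-125b-5p.

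Other sequences held by several hairpins differed widely in their counts. Whether they differed more than sequences in 1 hairpin was not tested, and the shares that reached 10 counts were close. Of 65 mature miRNAs whose RefSeq sequence occurs in more than 1 hairpin, 16 reached 10 counts in some library (24.6%), as did 331 of 1558 with a sequence in 1 hairpin (21.2%). Within the 65, miR-92a-3p had 81732 counts or more per library, while miR-24-3p had 2 counts in all. miR-125b-5p, with 202 to 274 counts per library, let-7c-5p (375 to 494) and let-7a-5p (370 to 469) belong to the 65. The part of read assignment in the low count of miR-125b-5p was not tested, and its level and the arm order are those of the deposited counts.

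miR-125b-1-3p, the strand specific to the chromosome 9 copy, was the scarcest of the tested arms and had the largest fold change among them. It was at 2.61, 2.43 and 1.70 CPM in controls and 2.85, 4.90 and 5.33 CPM after LPS. All LPS libraries were above the controls, but LPS replicate 1 by little. The counts were 11, 10 and 7 in controls and 9, 20 and 21 after LPS. The log2 fold change of 0.97 (SE 0.35, 95% interval 0.20 to 1.74) had an unadjusted p of 0.0182 and did not pass after adjustment over all 357 tested miRNAs (edgeR adjusted p = 0.224). DESeq2 gave an adjusted p of 0.701 and limma-voom 0.27.

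The copies of miR-125b were compared by their locus-specific 3p arms only, as miR-125b-5p cannot be divided between them. miR-125b-2-3p had 152.8 to 469.6 counts for each count of miR-125b-1-3p. The share of miR-125b-1-3p among both 3p arms was 0.307%, 0.279% and 0.213% in controls and 0.331%, 0.582% and 0.65% after LPS. The groups did not overlap, yet the 95% Wilson intervals did: that of LPS replicate 1 ran from 0.174% to 0.628% and that of control replicate 1 from 0.172% to 0.549%. The mean shares were 0.266% ± 0.0486 and 0.521% ± 0.168, a difference of 0.255 percentage points (two-sided exact permutation p = 0.1, the smallest this design allows, and 0.4 adjusted over the 8 shares compared). A limma fit of the log2 difference of both arms, added after seeing the data, gave 0.80 (SE 0.38, 95% interval -0.0071 to 1.61, adjusted p = 0.299). An unequal response of the 3p arms of both copies was thus not detected by the limma fit with 3 libraries per group at this depth. The permutation test could not have passed 0.05 with 3 against 3 libraries, so it cannot decide the question.

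**Figure D1:**
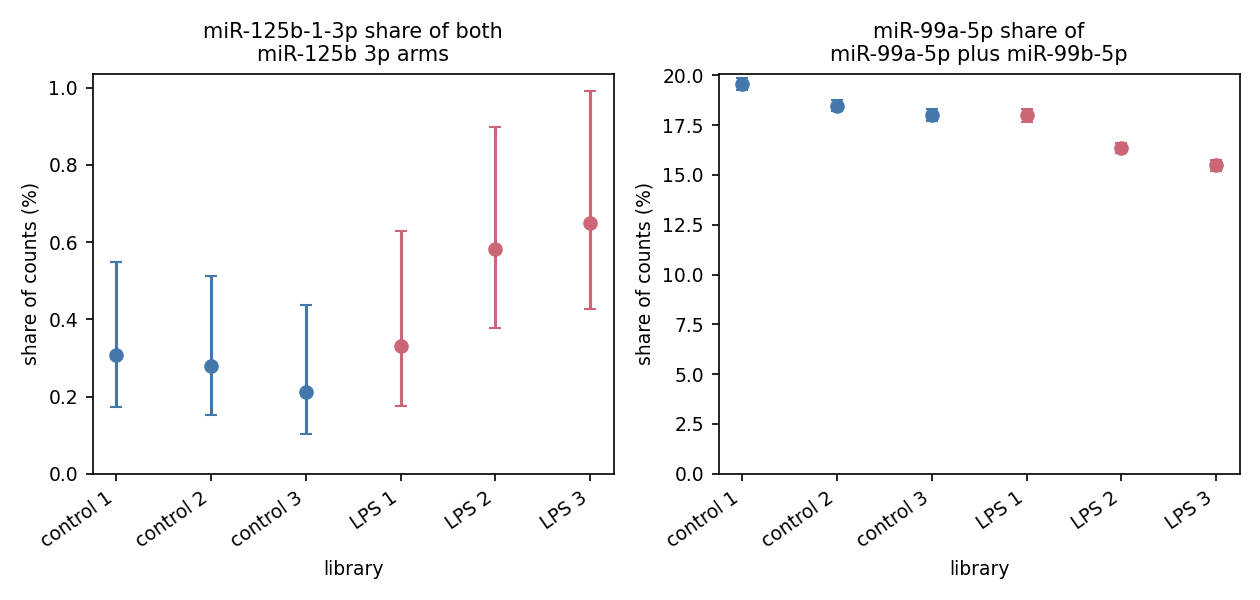
Share of counts in percent (vertical axes, from 0) in each of the 6 libraries, for miR-125b-1-3p among both miR-125b 3p arms (left) and miR-99a-5p among miR-99a-5p plus miR-99b-5p (right). Points are libraries, bars are 95% Wilson intervals for counting error, blue is control and red is LPS. On the left the lowest LPS library, at 0.331%, is close to the highest control at 0.307%, and on the right LPS replicate 1 and control replicate 3 both sit at 18.0%.

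miR-100-5p, the other locus-specific arm of chromosome 9, was at 6.88, 10.4 and 13.1 CPM in controls and 11.1, 9.32 and 10.4 CPM after LPS. The LPS libraries lay within the control range (log2 fold change 0.02, SE 0.26, edgeR adjusted p = 0.998), and upper-quartile factors or library totals turned the sign. Its counts were 29 to 54 per library, and its other arm miR-100-3p had 0 in all 6. It made up 0.329% ± 0.129 of miR-99a-5p plus miR-100-5p in controls and 0.361% ± 0.0447 in LPS libraries (exact permutation p = 0.8, two-sided).

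Summed over arms that belong to 1 cluster only, chromosome 16 gave 12348 to 18125 counts per library (miR-99a-5p, miR-99a-3p, let-7c-1-3p and miR-125b-2-3p). Chromosome 9 gave 40 to 62 (miR-100-5p, miR-100-3p, let-7a-2-3p and miR-125b-1-3p), which was 0.22% to 0.438% of both clusters. let-7a-2-3p, the 3p strand of the let-7 hairpin of chromosome 9, had 1 count in all. The locus-specific arms of chromosome 16 thus outnumbered those of chromosome 9 at the miR-99/100, let-7 and miR-125 positions alike in each library. At the let-7 and miR-125 positions only 3p strands were compared. The 5p arms let-7c-5p and let-7a-5p had means of 108.5 and 107.2 CPM over the 6 libraries. Each of these, like miR-125b-5p, is held by 2 hairpins and names no locus. Whether the hairpins differ in output or in the strand kept was not tested.

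**Figure D2:**
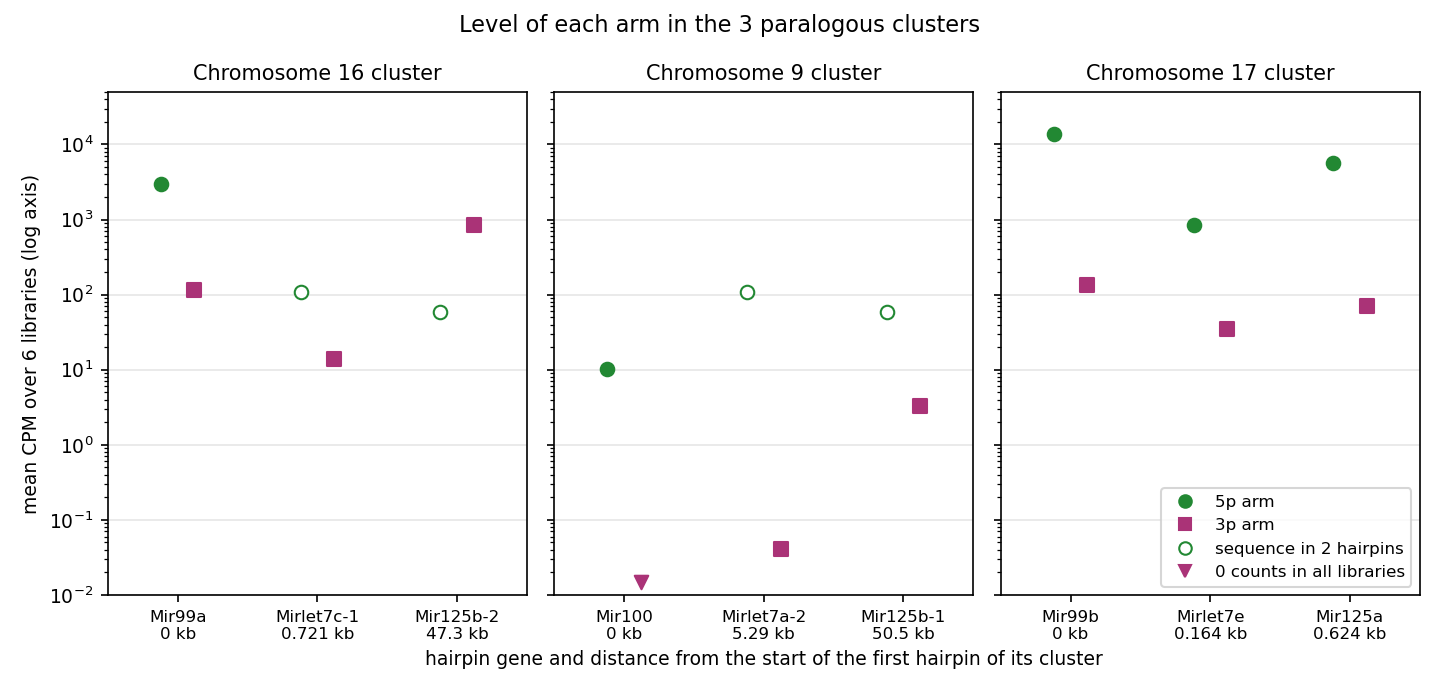
Mean level over the 6 libraries in CPM (vertical axis, log scale) of the 5p arms (circles) and 3p arms (squares) of each hairpin in the 3 paralogous clusters, with the distance of each hairpin from the first one of its cluster in kb. Open symbols are sequences present in 2 hairpins and the triangle marks an arm at 0 counts. Of the arms specific to chromosome 16 the lowest is let-7c-1-3p at 13.7 CPM, and of those specific to chromosome 9 the highest is miR-100-5p at 10.2 CPM.

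In order of mean level over all 6 libraries, the tested arms were miR-99a-5p (2993 CPM), miR-125b-2-3p (837.1), miR-99a-3p (115.3), miR-125b-5p (58.7), let-7c-1-3p (13.7), miR-100-5p (10.2) and miR-125b-1-3p (3.30). Their mature lengths are 21 or 22 bases. Neighbours in this order had separate ranges over the 6 libraries, except let-7c-1-3p and miR-100-5p, whose ranges overlapped. Together the 8 arms took 0.425% ± 0.0334 of all counts in controls and 0.382% ± 0.0313 in LPS libraries (exact permutation p = 0.2, two-sided). In RNA from whole cultures, fewer cells that hold a miRNA and less of it per cell cannot be told apart.

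**Figure D3:**
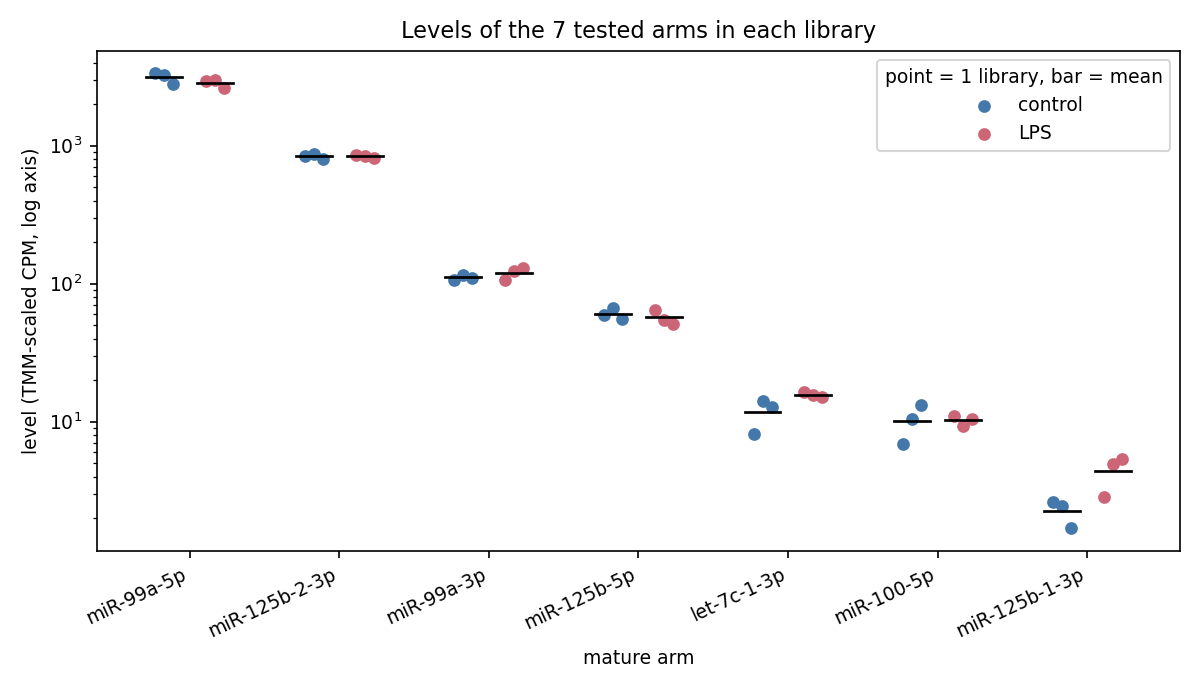
Level of the 7 tested arms in each library (vertical axis, TMM-scaled CPM on a log scale), with control libraries in blue, LPS libraries in red and a black bar at the mean of the 3 libraries. From left to right the mean over both groups goes from 2993 CPM for miR-99a-5p to 3.30 CPM for miR-125b-1-3p, and the groups are separate for let-7c-1-3p and miR-125b-1-3p alone.

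Over the set, the quasi-likelihood test of edgeR, adjusted by Benjamini-Hochberg over the 357 tested miRNAs, called 0 of 7 tested arms. Of all 357, it called 5.04%, with 3.64% higher and 1.4% lower after LPS. DESeq2 also called 0 of the 7 (5.88% of all) and limma-voom 0 (5.04% of all). At an unadjusted p below 0.05, 1 of the 7 passed (11.8% of all), and in 2 of the 7 the groups did not overlap (16% of all). The median log2 fold change was 0.02, beside 0.01 over all tested miRNAs, and 4 of the 7 values were above 0. A set of 7 is too small to set its share apart from these percentages.

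The other arms of the same clusters and of let-7b gave the context. Of 12 such arms 10 were tested, 3 rose, none fell and 7 did not pass, with a median log2 fold change of 0.12. Over all 357 tested miRNAs 3.64% rose and 1.4% fell, with a median of 0.01. The 3 rises were all 3p strands of the chromosome 17 cluster. Their log2 fold changes were 2.24 (SE 0.20) for miR-125a-3p, 1.89 (SE 0.22) for let-7e-3p and 0.58 (SE 0.14) for miR-99b-3p. Their counterparts on chromosome 16, miR-125b-2-3p, let-7c-1-3p and miR-99a-3p, had -0.0021, 0.43 and 0.11. The difference between the 3p responses of both clusters was not tested. The call of miR-99b-3p (edgeR adjusted p = 0.0415) was close to the threshold.

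**Figure D4:**
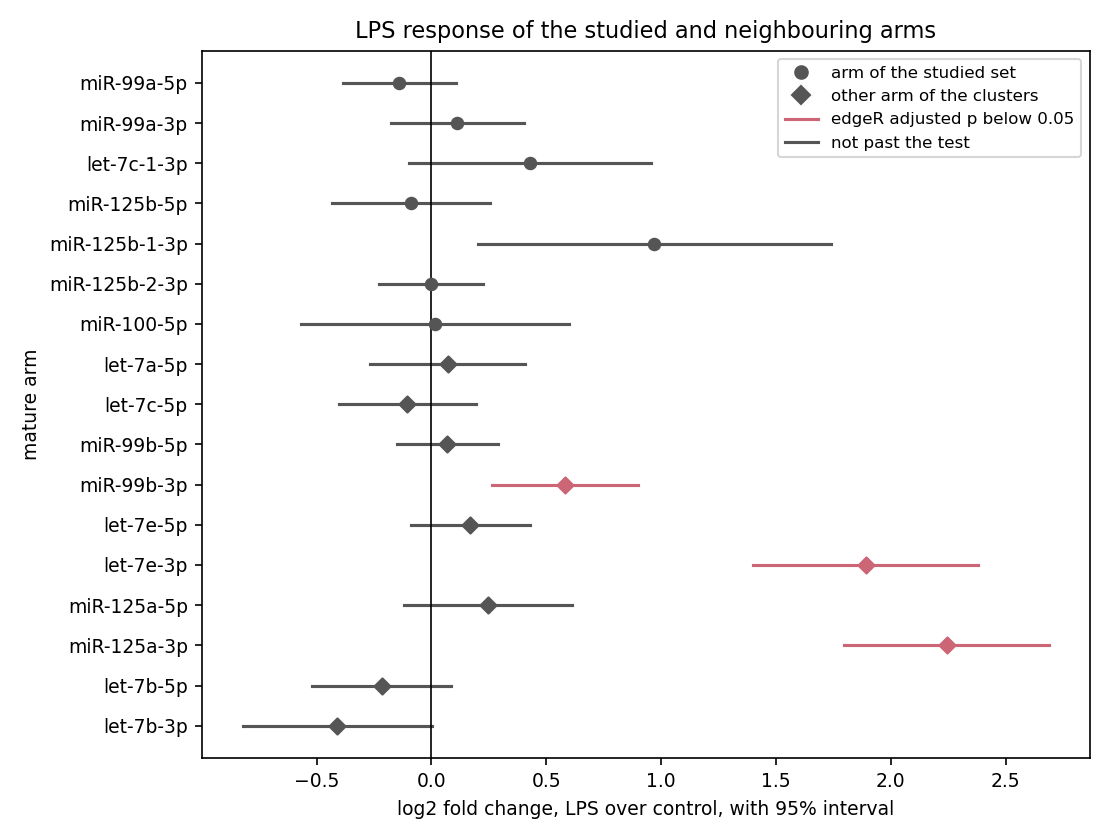
Log2 fold change of LPS over control (horizontal axis) with its 95% interval for the 7 tested arms of the set (circles) and 10 other arms of the clusters and of let-7b (diamonds). Arms past the edgeR test are red. The red arms are miR-99b-3p, let-7e-3p and miR-125a-3p, and the interval of miR-125b-1-3p (0.20 to 1.74) lies above 0 although its adjusted p of 0.224 does not pass.

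The main arms sharing a seed were compared by their shares. miR-99b-5p took 82.3% of the counts with the seed ACCCGUA over all libraries, miR-99a-5p 17.6% and miR-100-5p 0.0597%. miR-99a-5p was 19.6%, 18.5% and 18.0% of miR-99a-5p plus miR-99b-5p in controls and 18.0%, 16.4% and 15.5% after LPS. The highest LPS library and the lowest control met at 18.0%, and the difference of -2.07 percentage points between the means had a two-sided exact permutation p = 0.1, or 0.4 adjusted over the 8 shares. The limma fit of the log2 difference, added after seeing the data, gave -0.21 (SE 0.14, adjusted p = 0.566).

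Of the counts with the seed CCCUGAG, miR-125a-5p took 71.8%, miR-351-5p, a miRNA of the X chromosome in rodents, took 27.4% and miR-125b-5p 0.756%. miR-125b-5p was 1.20% ± 0.284 of miR-125b-5p plus miR-125a-5p in controls and 0.928% ± 0.0585 in LPS libraries (exact permutation p = 0.4, two-sided). Of the miR-125b counts, both 3p arms made up 93.3% ± 0.336 and 93.7% ± 0.598 (two-sided exact permutation p = 0.4). miR-99a-3p shares its seed with miR-99b-3p and held 46.8% of their joint counts, and the 3p strands of both miR-125b copies and of let-7c-1 share theirs with no other arm that was matched to a RefSeq sequence.

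The miRNAs whose level followed miR-99a-5p most closely over the 6 libraries were miR-98-3p, miR-501-3p and miR-28a-3p. Their root mean square differences from miR-99a-5p in centred log2 CPM were 0.053, 0.060 and 0.064, where the median of all other tested miRNAs was 0.244. For miR-125b-5p they were miR-362-5p (0.063), miR-872-3p (0.069) and miR-320-3p (0.075), against a median of 0.26. For miR-125b-1-3p they were miR-669o-5p (0.255), miR-3069-5p (0.299) and miR-3061-5p (0.307), against a median of 0.531. None of these 9 passed edgeR's test, which 5.04% of all tested miRNAs passed. They were picked for likeness to arms that did not pass, so this adds no separate result. All values come from the same 6 libraries, and this likeness describes them only.

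miR-99a, miR-100 and miR-125b are also found in stromal and blood progenitor cells, so markers of such cells, with no arm of the set among them, were summed. Of 11 stromal and fibroblast arms, 5 had 0 counts in all libraries and 2 reached 10 counts in some library. Their sum, scaled by library totals, was 112.9 to 123.9 CPM in controls and 109.1 to 110.3 CPM after LPS, nearly all of it miR-152-3p. miR-143-3p had 1 to 7 counts per library and miR-145a-5p 0. miR-199a-5p had 0 counts and miR-199a-3p 3 in all, but both sequences occur in more than 1 hairpin, where read assignment is unknown. The myeloid arm miR-142a-3p was also listed at 0, so a 0 was not taken to show that a cell type was absent. Of 5 endothelial and progenitor arms, 3 reached 10 counts in some library. The 5 together gave 24.3 to 32.7 CPM in controls and 21.8 to 34.1 CPM after LPS. Most of it was miR-130a-3p, at 64 to 108 counts per library. miR-10b-5p, which is also in the stromal list, had 6 to 17 and miR-196b-5p 5 to 10. miR-126a-3p had 1 count in all. The sums of 4 erythroid arms were at most 1.52 CPM, and 2 lymphocyte arms gave 55.0 to 74.7 CPM over the 6 libraries.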

How the data were processed

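Small RNA libraries (TruSeq Small RNA kit, total RNA) of 3 control and 3 LPS samples were analysed. The 2 chromosome conformation samples were not analysed here. The authors deposited raw counts for each mature miRNA, and the values show no normalization. Novoalign, SAMtools 0.1.19 and the build GRCm38.p1 (mm10) stand in the submitters' processing notes. Which tool and annotation gave the counts, how multi-mapped reads were treated and whether strand was used is not given in the sources used here. Adapter ligation differs between sequences and was not measured, so levels of different miRNAs are those of counted reads.

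Counts were tested with edgeR 4.0.16 (R 4.3.3; quasi-likelihood F test, TMM factors, filterByExpr with a minimum count of 10), which kept 357 miRNAs, and p-values were adjusted over all of them by Benjamini-Hochberg with a threshold of 0.05. Arms of a hairpin were compared with limma 3.58.1 on log2 CPM (prior count 2), and shares by two-sided exact permutation tests (scipy 1.17.1). DESeq2 1.42.0, limma-voom, other scalings and filters, a replicate block and leaving out each library were alternatives. The fits were tested on simulated data. Wilson intervals and the limits set by a count of 0 cover counting error only, as reads carry no molecular identifiers. Intervals of fold changes come from the fits and include the spread between libraries. All pairs of libraries of 1 group differed by more than counting noise (lowest chi-square 63.0 per degree of freedom). The arms named are the whole set, the other arms of its clusters and the 3 miRNAs most alike in pattern to each of 3 arms. Members and lists were chosen with earlier results of these data known. RefSeq sequences were matched by name for 1623 of 1907 miRNAs.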

Additional observations from a re-analysis of the deposited data

How the results depend on the processing

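Over 14 alternatives the number of the 7 arms called stayed at 0, and miR-99a-5p, miR-99a-3p, let-7c-1-3p and miR-125b-1-3p kept their direction wherever they were tested. Over them the log2 fold change ranged from -0.20 to -0.035 for miR-99a-5p, from 0.041 to 0.16 for miR-99a-3p, from 0.18 to 0.59 for let-7c-1-3p and from 0.84 to 1.14 for miR-125b-1-3p (adjusted p 0.152 to 0.701). miR-125b-1-3p and miR-100-5p had too few counts for the minimum of 50. Arms with a change near 0 switched sign. miR-100-5p was -0.045 with upper-quartile factors and -0.045 with library totals, and ranged from -0.24 to 0.27 when 1 library was left out. miR-125b-2-3p was 0.020 with no filter and -0.055 to 0.066 with 1 library left out, and miR-125b-5p -0.22 to 0.030. The share of miR-100-5p changed by -0.0304 to 0.0987 percentage points with 1 library left out, turning negative without control replicate 1. The other 7 shares and the arm difference of miR-99a (0.13 to 0.35) kept their direction or were 0. The number of all miRNAs called was 18, and ranged from 11 without LPS replicate 3 to 26 with no filter. Same-numbered libraries had correlations of their deviations of 0.02, 0.14 and -0.04. The highest, of replicate 2 in both groups, was near that of control replicate 1 with LPS replicate 3 (0.14 each). Values this small cannot settle whether the numbers are pairs, and they were not taken as such. With a replicate block 17 miRNAs were called, 0 of them in the set, miR-125b-1-3p was 0.95 (adjusted p = 0.37) and the arm difference of miR-99a 0.24, and the shares had exact sign-flip p-values of 0.25 or more, the smallest 3 pairs allow. Depth limits miR-125b-1-3p, at 7 to 21 counts per library, and let-7c-2-3p.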
